A study of Rattus norvegicus with 9 samples.

Results

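Antigen processing and presentation genes were followed without drug and with bavisant at 1 µM or 10 µM in rat oligodendrocyte precursor cell (OPC) cultures. The set was fixed by gene symbol and held 10 of the 32623 gene IDs in the files: Psmb8, Psmb9 and Psmb10, Tap1, Tap2 and Tapbp, B2m and RT1-CE1, Nlrc5 and Cd74. Each symbol matched 1 ID, and all 10 passed the filter on low counts. The cells were OPCs from the brain of wild-type (WT) rats, purified and kept for 5 days in differentiation medium. They were left without drug (basal) or grown with bavisant, a histamine H3 receptor antagonist, at 1 µM or 10 µM, with 3 bulk RNA libraries per group. Below, the untreated basal group is counted among the doses. Every group held libraries numbered P11, P13 and P14, the labels do not say what the number stands for, and no label gives the age or sex of the animals. The lower dose is written as 1 mM in the growth and treatment protocols but as 1 µM in the treatment labels and the series design, and 1 µM is used here. No label says that the libraries came from separate animals or cultures, so a p-value here may measure technical spread only.

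Most nucleated cells cut cytosolic proteins with the proteasome, carry the peptides into the endoplasmic reticulum through the TAP transporter and display them on class I molecules, each made of a heavy chain and beta-2-microglobulin. Interferons switch on much of this route, including the inducible catalytic subunits that replace the standard ones in the immunoproteasome. The class II route, in which Cd74 is the invariant chain, belongs mainly to professional antigen presenting cells, and in brain cultures both routes are best known from microglia.

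The interferon-stimulated response element (ISRE), the sequence bound by interferon regulatory factors, was looked for in the promoters because most of these genes are known interferon targets. It was taken as GAAA, any 2 bases and GAAA again, on both strands, in RefSeq windows of 300 bases (build GRCr8) that begin upstream of each gene's start and run a short way past it. Of the 10 genes, 9 had a window, Nlrc5 being the exception, and 6 of these 9 (66.7%) held a match, against 1312 of 33469 windows in the whole table (3.92%). The matches in those 6 are printed with their flanks, 5′ to 3′ on the gene's own strand, and capitals mark the match (TTTC letters where it lies on the opposite strand):
Psmb8 (chr20:4657026-4657055, minus strand): cctcctcttggtgctgtggcTTTCGCTTTC
Psmb10 (chr19:50743293-50743385, minus strand): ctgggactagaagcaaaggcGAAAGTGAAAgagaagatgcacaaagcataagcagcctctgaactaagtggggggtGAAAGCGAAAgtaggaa
Tap1 (chr20:4668635-4668684, minus strand): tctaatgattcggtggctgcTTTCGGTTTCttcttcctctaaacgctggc
Tap2 (chr20:4652308-4652357, minus strand): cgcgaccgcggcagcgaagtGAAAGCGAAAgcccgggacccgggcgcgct
Tapbp (chr20:4967878-4967923, minus strand): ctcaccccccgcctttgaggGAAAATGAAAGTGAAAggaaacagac
B2m (chr3:129549160-129549209, plus strand): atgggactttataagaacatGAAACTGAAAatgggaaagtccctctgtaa

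The match began 4 bases before the annotated start in Psmb8, 41 bases before it in Tap2, 121 in Tap1 and 150 in B2m. Psmb10 held a match at 73 and another at 17 bases before its start. Tapbp held matches at 26 and 20 bases, which share 4 letters. The windows of Psmb9, RT1-CE1 and Cd74 held none. Another interferon-linked motif, the gamma-activated site (TTCNNNGAA), was found in 1 of the 9 windows, that of Psmb8 (11.1%), against 8.87% of all windows. The NF-kB motif, taken as GGG and CC with any 5 bases between, was in 5 of 9 windows (55.6%, all windows 47.3%), and the CCAAT box in 4 of 9 (44.4%, all windows 37.5%). These matches describe letters and not binding. Tap2, Psmb8, Tap1 and Psmb9 stand next to one another in the rat annotation, between RT1-DOb and RT1-DMb, in the class II region of the major histocompatibility complex.

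The libraries held 23.9 to 43.1 M estimated reads (M, 1e+06). Summed over 18 oligodendrocyte lineage markers, the level was 39330 to 44052 TPM (transcripts per 1e+06, a per-length level) in basal, 38193 to 44940 TPM in 1 µM and 51171 to 56858 TPM in 10 µM libraries. The 28 microglia and macrophage markers in the file summed to 2072 to 2772 TPM in basal, 2464 to 2998 TPM in 1 µM and 1698 to 2158 TPM in 10 µM libraries, with Siglech at 0 in all 9. The 12 T and NK cell markers never summed to more than 3.39 TPM, with Cd3d, Cd3g, Nkg7, Prf1 and Gzmb at 0 throughout. The 15 astrocyte markers summed to 2232 to 2775 TPM in basal, 2049 to 2918 TPM in 1 µM and 1668 to 2391 TPM in 10 µM libraries. The 13 neuron markers summed to 495 to 727 TPM, 465 to 672 TPM and 460 to 552 TPM in the same order. The cultures thus carried microglial, astrocyte and neuronal transcripts beside oligodendrocyte ones. In bulk RNA, fewer cells of a type and less RNA per cell cannot be told apart.

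B2m, the light chain shared by all class I molecules, was the most abundant of the 10 genes by length-scaled level, with a mean of 352 ± 98.4 TPM over the 9 libraries (SD). Psmb10 followed at 54.7 ± 13.6 TPM, then Tapbp at 18.5 ± 4.02, Psmb9 at 16.0 ± 6.20 and Tap1 at 10.96 ± 4.28 TPM. Psmb8 averaged 10.1 ± 3.18 TPM, Tap2 6.53 ± 1.01, RT1-CE1 3.87 ± 1.47, Cd74 2.04 ± 1.48 and Nlrc5 0.649 ± 0.442 TPM. Most neighbours in this order kept it in every library. Tap1 was above Psmb8 in only 5 of the 9 libraries, Cd74 was above Nlrc5 in 7, and Tapbp was above Psmb9 in 8. The low end rests on few reads, with 7 to 107 reads per library for Cd74, 34 to 216 for Nlrc5 and about 22.3 to 118 estimated reads for RT1-CE1.

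By group mean all 10 genes were highest at 1 µM and 7 were lowest at 10 µM, and for most of them a single 1 µM library, P13, held most of the height. All 10 genes had lower fitted values in 10 µM than in 1 µM libraries, and only Psmb8 and Psmb9 passed the test, in the fit that includes the P number. At 10 µM against basal and at 1 µM against basal no gene of the set passed. Levels per library are given below as counts per 1e+06 reads after TMM scaling (CPM), for P11, P13 and P14 in that order within each dose.

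**Figure D1:**
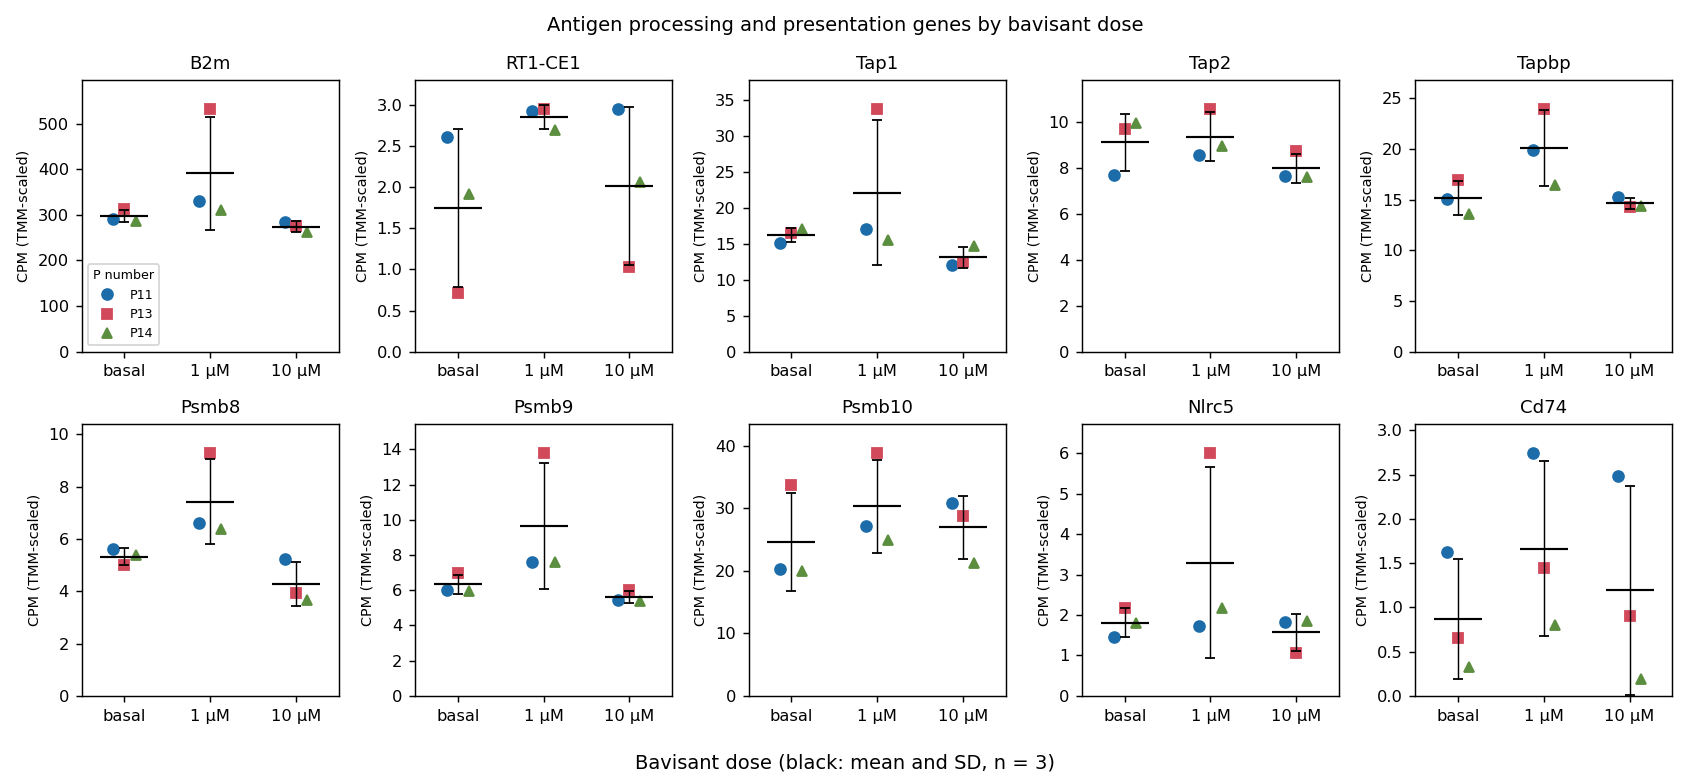
Each panel plots 1 gene in CPM (linear axis from 0) against dose, with a point for each library by P number, and the bar and whiskers give the mean and SD of 3 libraries. The 1 µM P13 library is the highest point for every gene except Cd74, whose highest library is 1 µM P11.

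Psmb8, the inducible subunit that takes the place of Psmb5, had 5.61, 4.99 and 5.39 CPM in basal libraries, 6.61, 9.29 and 6.40 CPM at 1 µM, and 5.22, 3.95 and 3.65 CPM at 10 µM. All 3 libraries at 1 µM lay above all 10 µM and all basal libraries, while the 10 µM and basal ranges overlapped. Psmb9, the inducible partner of Psmb6, had 6.03, 6.97 and 5.98 CPM in basal libraries, 7.59, 13.8 and 7.58 CPM at 1 µM, and 5.46, 6.002 and 5.39 CPM at 10 µM. The 1 µM libraries again stood above the others, P11 and P14 by a small step and P13 by a large one. Psmb10, which replaces Psmb7, had 20.3, 33.7 and 19.97 CPM in basal libraries, 27.2, 38.9 and 24.98 CPM at 1 µM, and 30.8, 28.9 and 21.3 CPM at 10 µM. Its 3 dose ranges all overlapped.

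Tap1 encodes a chain of the peptide transporter and had 15.1, 16.5 and 17.0 CPM in basal libraries, 17.1, 33.7 and 15.4 CPM at 1 µM, and 12.1, 12.5 and 14.7 CPM at 10 µM. Every 10 µM library was below every basal and every 1 µM library. Tap2, its partner in the transporter, had 7.70, 9.70 and 9.96 CPM in basal libraries, 8.56, 10.6 and 8.95 CPM at 1 µM, and 7.63, 8.72 and 7.62 CPM at 10 µM, with overlapping ranges. Tapbp encodes tapasin, which bridges the transporter and the empty class I molecule. It had 15.02, 16.9 and 13.5 CPM in basal libraries, 19.9, 23.9 and 16.4 CPM at 1 µM, and 15.3, 14.2 and 14.4 CPM at 10 µM. All 10 µM libraries of Tapbp were below all 1 µM libraries, but not below all basal ones.

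B2m had 291, 312 and 287 CPM in basal libraries, 329, 533 and 311 CPM at 1 µM, and 284, 277 and 262 CPM at 10 µM. Its 10 µM libraries were the lowest of the 9, and the gap to basal was a few CPM. RT1-CE1 is 1 of the many class I heavy chain genes of the rat and had 2.61, 0.714 and 1.91 CPM in basal libraries, 2.92, 2.95 and 2.69 CPM at 1 µM, and 2.94, 1.03 and 2.07 CPM at 10 µM. The 1 µM libraries exceeded all basal ones, where P13 was lowest. RT1 class I genes are near-identical copies, so the split of reads among them is uncertain. The estimated counts of RT1-CE1, Psmb8, Tap1 and Tap2 are not whole numbers, which shows that reads were shared out.

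Nlrc5, the transactivator of class I genes, had 1.45, 2.17 and 1.80 CPM in basal libraries, 1.72, 6.01 and 2.16 CPM at 1 µM, and 1.82, 1.05 and 1.85 CPM at 10 µM. Apart from 1 µM P13, which was 2.76 times the second highest library, its libraries overlapped across doses. Cd74 had 1.63, 0.649 and 0.324 CPM in basal libraries, 2.74, 1.45 and 0.797 CPM at 1 µM, and 2.49, 0.898 and 0.188 CPM at 10 µM. At each dose P11 was the highest and P14 the lowest for Cd74, and the doses overlapped.

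The median of the set was farther from 0 at 10 µM against 1 µM than in the other dose comparisons, while Cd74, RT1-CE1 and Psmb10 had larger fitted values at 1 µM against basal. Without the P number in the fit, no gene of the set and no gene of the 15321 tested (0%) passed an adjusted p of 0.05 by edgeR's quasi-likelihood test. At an unadjusted p under 0.05, 5 of the 10 genes were lower (Psmb8, Psmb9, Tap1, Tapbp and B2m), as were 2.96% of all tested genes. DESeq2 also called 0 of the 10 in that fit. With the P number in the fit, 659 genes passed (4.3%), 200 higher and 459 lower. Of the set, Psmb8 and Psmb9 fell, where 3% of all tested genes passed as lower. At an unadjusted p under 0.05, 7 of the 10 were lower, as were 12.8% of all tested genes. Scaling by library totals kept all 10 directions and moved the lower share of the calls over all genes to 87.4%, against 69.7% with TMM.

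Psmb8 fell by 0.80 ± 0.18 on the log2 scale (SE; edgeR quasi-likelihood test with the P number, adjusted p = 0.0455), and was lower at 10 µM in 3 of 3 P numbers. Psmb9 fell by 0.74 ± 0.16 (adjusted p = 0.0414), also in 3 of 3. Neither passed without the P number (adjusted p = 0.867 for Psmb8 and 0.941 for Psmb9). Tapbp, with a log2 fold change of -0.44 ± 0.10 (adjusted p = 0.0517), and B2m, with -0.48 ± 0.14 (adjusted p = 0.0923), did not pass. Tap1 had -0.70 ± 0.23 (adjusted p = 0.133). The remaining 5 genes had fitted log2 fold changes between -0.89 (Nlrc5) and -0.15 (Psmb10), none past the test.

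The median log2 fold change of the 10 genes was -0.66 at 10 µM against 1 µM, and that of all tested genes was about 0 (-0.0045). By P number the median was -0.19 in P11, -1.07 in P13 and -0.24 in P14. Within P numbers, 7 of the 10 genes were lower at 10 µM in all 3, as were 21.9% of all tested genes. The groups did not overlap in 5 genes (Psmb8, Psmb9, Tap1, Tapbp and B2m, all lower at 10 µM), as in 4.36% of all tested genes.

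The size of the difference in the set leaned on the 1 µM P13 library. Without it, the median of the 10 genes was -0.28, Psmb8 had a log2 fold change of -0.57 (adjusted p = 0.128) and Psmb9 had -0.49 (adjusted p = 0.0887) by edgeR with the P number, and neither passed. The number of genes called over the whole table dropped to 31, of which 22 were lower. It dropped to 0 without 1 µM P11, 1 µM P14 or 10 µM P14, and to 182 without 10 µM P13, so P13 was not alone in this. Without 1 µM P13 all 10 genes were still on the lower side, and 5 had an unadjusted p under 0.05, against 10.2% of all tested genes that were lower at that p. Leaving out any single library among the 9 kept Psmb8 past the test in 1 of 9 runs (adjusted p 0.0264 to 0.156) and Psmb9 in 0 of 9 (0.0529 to 0.143).

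The 1 µM dose against basal gave no gene of the 15321 past the adjusted test in either fit (0%), and so none of the set. DESeq2 called 5 genes without and 8 with the P number, none of the set. At an unadjusted p under 0.05 in the fit without the P number, 81 genes of the table differed, 53 higher (0.346%) and 28 lower. Psmb8, Psmb9 and Tapbp were among the higher ones. All 10 genes of the set had fitted values above 0, with a median of 0.43 with the P number, where the median of all genes was -0.0032. With the P number, 6 of the 10 were higher at an unadjusted p under 0.05 (Psmb8, Psmb9, Tapbp, B2m, RT1-CE1 and Cd74), as were 1.91% of all tested genes. The groups did not overlap in 3 genes (Psmb8, Psmb9 and RT1-CE1, all higher at 1 µM), as in 1.48% of all tested genes, and 8 of the 10 were higher in all 3 P numbers, as were 13.7% of all.

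The fitted log2 fold changes at 1 µM against basal were 0.47 ± 0.18 for Psmb8, 0.57 ± 0.16 for Psmb9 and 0.40 ± 0.10 for Tapbp (SE, with the P number). Cd74 had 1.06 ± 0.32 and RT1-CE1 0.85 ± 0.34, both on few reads. The medians by P number were 0.23 in P11, 0.93 in P13 and 0.27 in P14. Without the 1 µM P13 library the median over the set was 0.25, with 4 genes higher at an unadjusted p under 0.05 (2.29% of all tested genes), and the values of Tap1 and Tap2 turned to -0.0052 and -0.0028. These comparisons share libraries, the basal ones or the 1 µM ones, so they are not independent of each other.

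The 10 µM dose against basal showed little in these genes. No gene passed without the P number (0% of the table; 808 or 5.27% at an unadjusted p under 0.05, none of them of the set). With it, 607 genes passed (3.96%), 202 higher and 405 lower, and again none of the 10. None of the 10 had an unadjusted p under 0.05 in that fit, where 22.4% of all tested genes did, and DESeq2 called none of them either. Without the 1 µM P13 library, which enters this comparison only through the shared spread and the P number, 3 of the 10 (Psmb8, Tap1 and B2m) were lower at an unadjusted p under 0.05, as were 13.6% of all tested genes, and none passed the adjusted test. Of the 607 calls with all libraries and TMM, 66.7% were lower. Under scaling by library totals the lower share was 84.3%, and the directions of the 10 genes were kept. The median log2 fold change of the set was -0.12, against -0.0112 for all genes, with 7 genes below 0 and 3 (Psmb10, RT1-CE1 and Cd74) above. B2m and Tap1 were lower at 10 µM with no overlap of the groups, as were 4.61% of all tested genes, and 5 of the 10 were lower in all 3 P numbers, as were 24.3% of all.

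The fitted values at 10 µM against basal were -0.33 ± 0.18 for Psmb8 (SE, edgeR with the P number, adjusted p = 0.318), -0.30 ± 0.23 for Tap1 (0.47) and -0.19 ± 0.10 for Tap2 (0.294). B2m had -0.11 ± 0.14 (adjusted p = 0.666). The sign differed among the P numbers for Psmb10, Tapbp, Nlrc5 and Cd74, and it turned when 1 library was left out for these 4, for RT1-CE1 and for B2m. For Psmb10, P11 was 0.60 higher at 10 µM on the log2 scale, while P13 was 0.22 lower (-0.22).

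**Figure D2:**
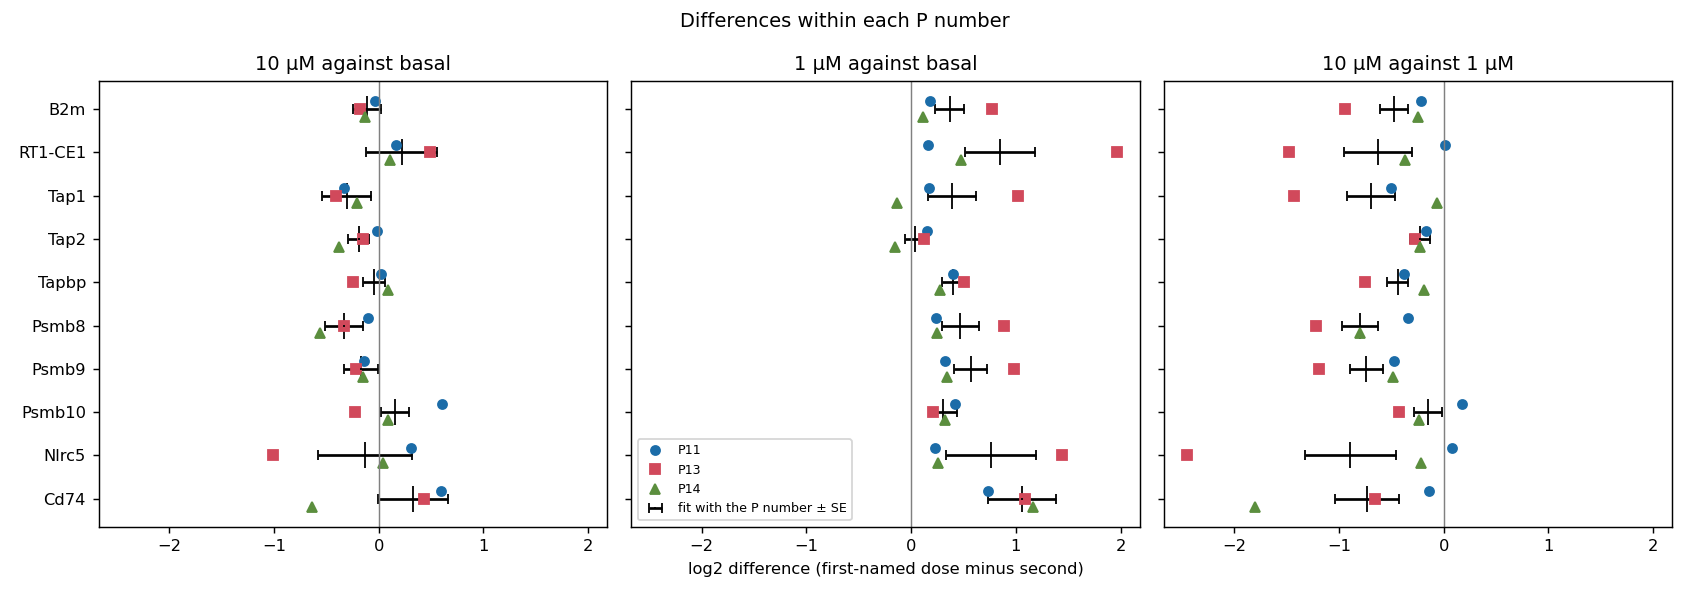
For each gene, coloured points give the log2 difference within P11, P13 and P14, and the black mark with whiskers gives the fitted log2 fold change with its SE from the fit with the P number. P13 lies farthest from 0 for 9 of the 10 genes in the panel of 10 µM against 1 µM. In the panel of 10 µM against basal, P13 of Nlrc5 lies farthest out, at -1.01.

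The inducible subunits were also set against the standard ones they replace, as a share of the summed TPM of each pair. Psmb8 made up 3.71 ± 0.290% of its pair with Psmb5 in basal libraries, 4.93 ± 1.03% at 1 µM and 2.59 ± 0.398% at 10 µM (SD, n = 3 each). In single libraries the Psmb8 share was 3.69, 3.44 and 4.02% in basal, 4.04, 6.06 and 4.69% in 1 µM and 3.04, 2.27 and 2.48% in 10 µM libraries, with no overlap between any 2 doses. From CPM in place of TPM, basal and 1 µM libraries overlapped (highest basal 5.253%, lowest 1 µM 5.251%), and the 10 µM libraries stayed below both. Psmb9 made up 7.27 ± 1.13% of its pair with Psmb6 in basal libraries, 10.4 ± 3.57% at 1 µM and 5.98 ± 0.655% at 10 µM. Its 10 µM libraries lay below all 1 µM ones and overlapped with basal. Psmb10 had 15.3 ± 4.83% of its pair with Psmb7 in basal libraries, 17.7 ± 3.78% at 1 µM and 15.2 ± 1.77% at 10 µM, and its doses overlapped. The standard subunits were thus the larger part of each pair at every dose.

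**Figure D3:**
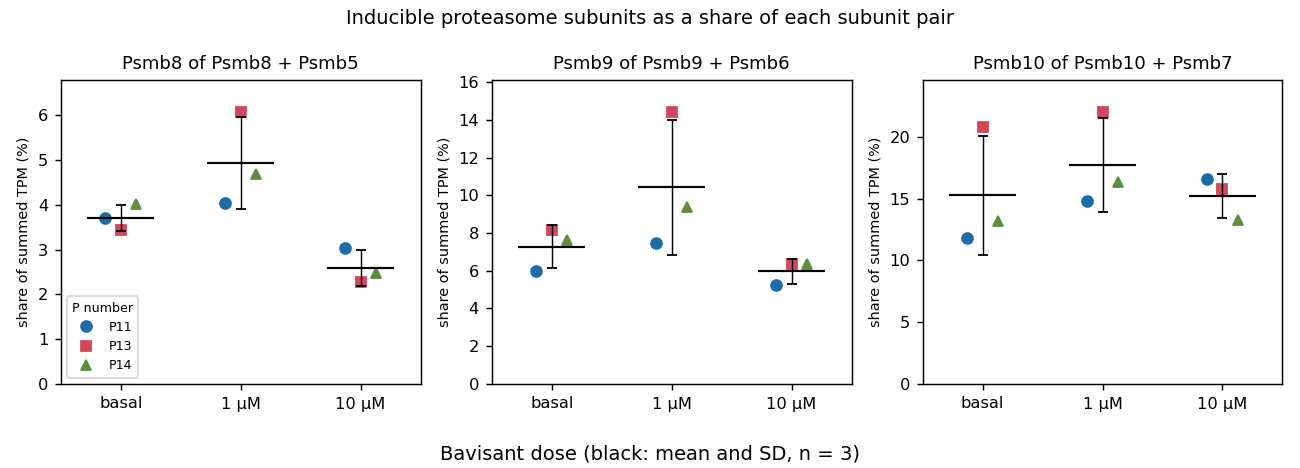
Share of the inducible subunit in the summed TPM of each pair (percent, linear axis from 0) by dose, with a point per library and the mean and SD of 3 libraries. For Psmb8 the 3 doses do not overlap, with 2.27 to 3.04% at 10 µM and 4.04 to 6.06% at 1 µM.

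The standard subunits themselves did not pass the test at any dose, and Psmb5, the largest of their fitted values at 10 µM against basal, had 0.18 ± 0.05 (adjusted p = 0.0713, edgeR with the P number). In the list of 8 standard subunits, activators and assembly factors, 1 gene passed at 10 µM against 1 µM (4.3% of all tested genes). This was Psme1, which encodes a part of the PA28 activator of the proteasome and fell by 0.27 ± 0.06 (adjusted p = 0.0466). None of the 8 passed in the other dose comparisons. Of 10 genes for peptide trimming and loading, 1 passed at 10 µM against 1 µM, against the same 4.3% of all tested genes, and none passed against basal. Tapbpl, a relative of tapasin that edits peptides, fell by 0.41 ± 0.09 (adjusted p = 0.0462). Calr, Canx and Pdia3, chaperones of the loading complex that serve many other proteins, had fitted values between -0.053 (Calr) and 0.0497 (Canx) at 10 µM against 1 µM. The median log2 fold change of this list at 10 µM against 1 µM was -0.05, and that of the standard subunits, activators and assembly factors was 0.06.

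Of 19 other class I and class I-like genes tested, 0 passed at either dose against basal (at an unadjusted p under 0.05, 2 were lower at 10 µM, where 13% of all tested genes were, and 9 higher at 1 µM, where 1.91% were). At 10 µM against 1 µM 1 passed (3% of all tested genes as lower), RT1-CE5, which fell by 0.50 ± 0.11 (adjusted p = 0.049992, edgeR with the P number). Their median log2 fold change was -0.56 at 10 µM against 1 µM, 0.43 at 1 µM against basal and -0.15 at 10 µM against basal. At 10 µM against 1 µM, 14 of the 19 were lower in all 3 P numbers, as were 21.9% of all tested genes. Without the 1 µM P13 library the median at 10 µM against 1 µM was -0.34 and none passed. RT1-A2, the most abundant heavy chain listed, had 59.3, 71.7 and 64.6 TPM in basal, 67.2, 129 and 69.9 TPM in 1 µM and 65.7, 51.7 and 61.4 TPM in 10 µM libraries. RT1-A1 had 42.5, 69.5 and 50.6 TPM in basal, 48.6, 128 and 59.8 TPM in 1 µM and 41.9, 58.0 and 45.6 TPM in 10 µM libraries. For both, 1 µM P13 was far above every other library. By these estimated levels RT1-CE1 was a minor heavy chain here, as far as the uncertain split of reads allows. Since reads of the copies can be exchanged, the 20 RT1 class I rows were also summed, to 210 to 246 TPM in basal, 240 to 472 TPM in 1 µM and 193 to 205 TPM in 10 µM libraries.

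The 1 µM P13 library stood apart in a broader group of genes. It was the highest of the 9 libraries in 9 of the 10 genes, where this held for 1244 of all 15321 tested genes (8.12%). Of 34 tested interferon-stimulated genes, it was the highest in 34, and of 19 class I and class I-like genes in 12. It was the highest for 17 of 27 microglia and macrophage markers, for 0 of 18 oligodendrocyte markers and for 0 of 15 astrocyte markers. The 39 interferon-stimulated genes in the file summed to 1371 TPM in 1 µM P13, and to 313 and 416 TPM in the other 1 µM libraries, 242 to 338 TPM in 10 µM libraries and 305 to 346 TPM in basal libraries.

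Isg15, a ubiquitin-like protein induced by interferon, had 68.8 TPM in 1 µM P13 and 1.25 to 5.96 TPM in the other 8 libraries. Mx2, a dynamin-like antiviral protein, had 208 TPM against 31.2 to 56.6 TPM. Irf1, an activator of several genes of the set, was also highest there, at 12.9 TPM against 8.70 to 11.8 TPM. Of 13 promoter factors of class I and II genes, Irf1 among them, 1 µM P13 was the highest by CPM in 4, against 8.12% of all tested genes. For the 10 genes of peptide trimming and loading it was the highest in 0. The part of this library's interferon-stimulated genes in the results at 1 µM was not tested, beyond the values without the library given above. No interferon-stimulated gene passed edgeR's adjusted test in any dose comparison with all 9 libraries. At an unadjusted p under 0.05 with the P number, 16 of the 34 were lower at 10 µM against 1 µM (12.8% of all tested genes), 9 were higher at 1 µM against basal (1.91%) and 0 differed at 10 µM against basal (22.4%). The median log2 difference of the 34 at 10 µM against 1 µM was -2.14 in P13, -0.63 in P11 and 0.27 in P14. At 1 µM against basal it was 1.88, 0.29 and 0.0195 in the same order. Without the 1 µM P13 library, the fitted median was -0.29 at 10 µM against 1 µM and 0.10 at 1 µM against basal. The size of these differences thus leaned on that library.

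**Figure D4:**
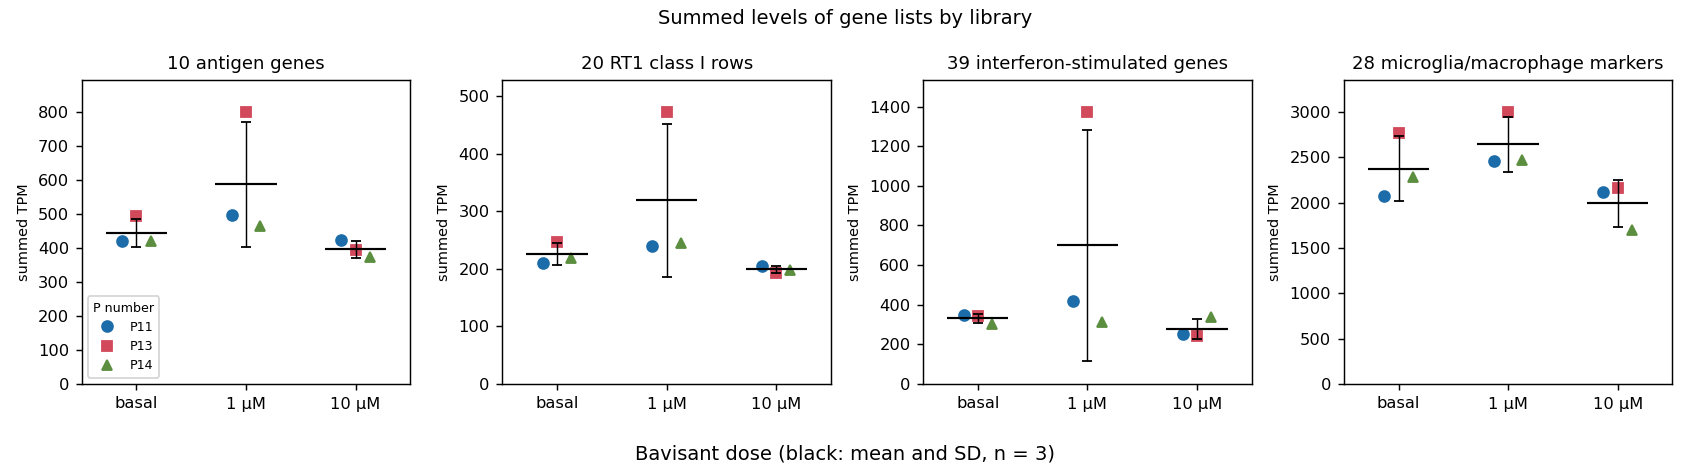
Summed TPM per library (linear axis from 0) by dose for the 10 genes, 20 RT1 class I rows, 39 interferon-stimulated genes and 28 microglia and macrophage markers, with the mean and SD of 3 libraries. The 1 µM P13 library reaches 798 TPM for the 10 genes, of which B2m holds 602 TPM, and 1371 TPM for the interferon-stimulated genes. The mean of the microglia markers is lowest at 10 µM, where the libraries overlap with basal. In this sum Lyz2 holds 745 TPM in 1 µM P13 and 244 to 862 TPM in the other 8 libraries.

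Of 27 tested microglia and macrophage markers, 10 passed as lower at 10 µM against 1 µM and 0 as higher, in the fit with the P number, where 3% of all tested genes passed as lower. None passed without the P number. Itgam, an integrin chain of microglia and macrophages, fell by 0.58 ± 0.06 (edgeR, adjusted p = 0.0123), Cd68, a lysosomal protein, by 0.37 ± 0.05 (0.016) and C1qa, a complement chain, by 0.29 ± 0.06 (0.0388). The others were Aif1, Trem2, Ctss, Mrc1, Cd14, Fcgr2b and Ly86, and the median of the list was -0.37. Markers of other cell types also moved at 10 µM against 1 µM. Of 15 astrocyte markers 2 passed as lower (median -0.27), of 8 endothelial markers 2 (median -0.58) and of 11 neuron markers 1 (median -0.13). Of 18 oligodendrocyte markers 8 passed as higher (median 0.26), where 1.31% of all tested genes did. Against basal, 6 of the 27 microglia and macrophage markers passed as lower at 10 µM, where 2.64% of all tested genes did. These were Itgam, Cd68, Mrc1, Cd14, Fcgr2b and Ly86. At 1 µM against basal 0 passed, and 6 were higher at an unadjusted p under 0.05, as were 1.91% of all tested genes. At 10 µM against basal 4 of 15 astrocyte, 4 of 11 neuron and 1 of 8 endothelial markers also passed as lower. Of 18 oligodendrocyte markers 9 passed as higher there, where 1.32% of all tested genes did. Without the 1 µM P13 library the microglia median at 10 µM against 1 µM was -0.38, with 1 gene called, as were 0.2% of all tested genes. Irf8 and Nfkb1, transcription factors with a role in immune cells, were the 2 of 13 promoter factors of class I and II genes that passed at 10 µM against 1 µM, where 4.3% of all tested genes passed. Irf8 fell by 0.39 ± 0.09 (adjusted p = 0.0462) and Nfkb1 by 0.27 ± 0.05 (adjusted p = 0.0355). Rfx5, Rfxap and Rfxank, the core of the complex on class I and II promoters, did not pass at any dose. The part of microglial transcripts, or those of the other cell types, in the lower values of the set was not tested.

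More genes passed between P numbers than between doses, and of the set Cd74 alone passed between P numbers. In the comparison of P11 with the mean of P13 and P14, 7751 of the tested genes passed (50.6%; 25.2% as higher in P11; edgeR with group and P number). It set P11 against both other P numbers, while a dose comparison sets a group against a single group. The counts thus come from tests of unlike power. Cd74 was the 1 gene of the 10 that passed, below the share of 50.6% over all tested genes. It was higher in P11 by 1.85 ± 0.26 on the log2 scale (adjusted p = 5.5e-04), and higher in P11 at 3 of 3 doses. P11 is a single number, and its libraries at the different doses served as its replicates. The p-values of this comparison thus measure residual spread among libraries, and not the spread between P numbers. The other 9 genes had fitted values between -0.44 (Nlrc5) and 0.68 (RT1-CE1).

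Genes of the class II route were called in both directions. RT1-Ba, the alpha chain of a class II molecule, was higher in P11 by 1.4998 ± 0.29 (edgeR, adjusted p = 0.0028), RT1-Da by 1.41 ± 0.29 (0.0043) and RT1-Db2 by 1.07 ± 0.36 (0.0368). RT1-DOb, a chain of the modulator of class II peptide loading, was lower in P11, with a log2 fold change of -2.32 ± 0.34 (0.000741). Lgmn, Ifi30 and RT1-DMb, which act in endosomal protein breakdown and class II loading, were also lower in P11. In all, 3 of the 14 tested genes of the class II route passed as higher in P11 and 4 as lower, near the shares of all tested genes (25.2% higher, 25.4% lower). Levels of the class II chains were low. RT1-Da had 1.05, 0.518 and 0.288 TPM in basal, 0.975, 0.313 and 0.523 TPM in 1 µM and 1.00, 0.456 and 0.255 TPM in 10 µM libraries. Ciita, the master regulator of class II genes, did not exceed 0.234 TPM in any library and was not tested.

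Microglia markers went the other way from Cd74. Of 27 tested, 19 were lower in P11 (25.4% of all tested genes) and 1, Lyz2, was higher. Their median log2 fold change was -0.36. Across doses, 1 of the 14 tested genes of the class II route passed at 10 µM against basal, where 3.96% of all tested genes did. This was Cd80, a costimulatory ligand, which fell by 0.84 ± 0.17 (edgeR with the P number, adjusted p = 0.0356). At 10 µM against 1 µM 1 of the 14 passed, where 4.3% of all tested genes did. It was Ctss, the cathepsin that trims the invariant chain, which fell by 0.37 ± 0.07 (adjusted p = 0.0328). Ctss is also counted among the microglia markers above. At 1 µM against basal 0 of the 14 passed, and 2 were higher at an unadjusted p under 0.05, as were 1.91% of all tested genes.

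**Figure D5:**
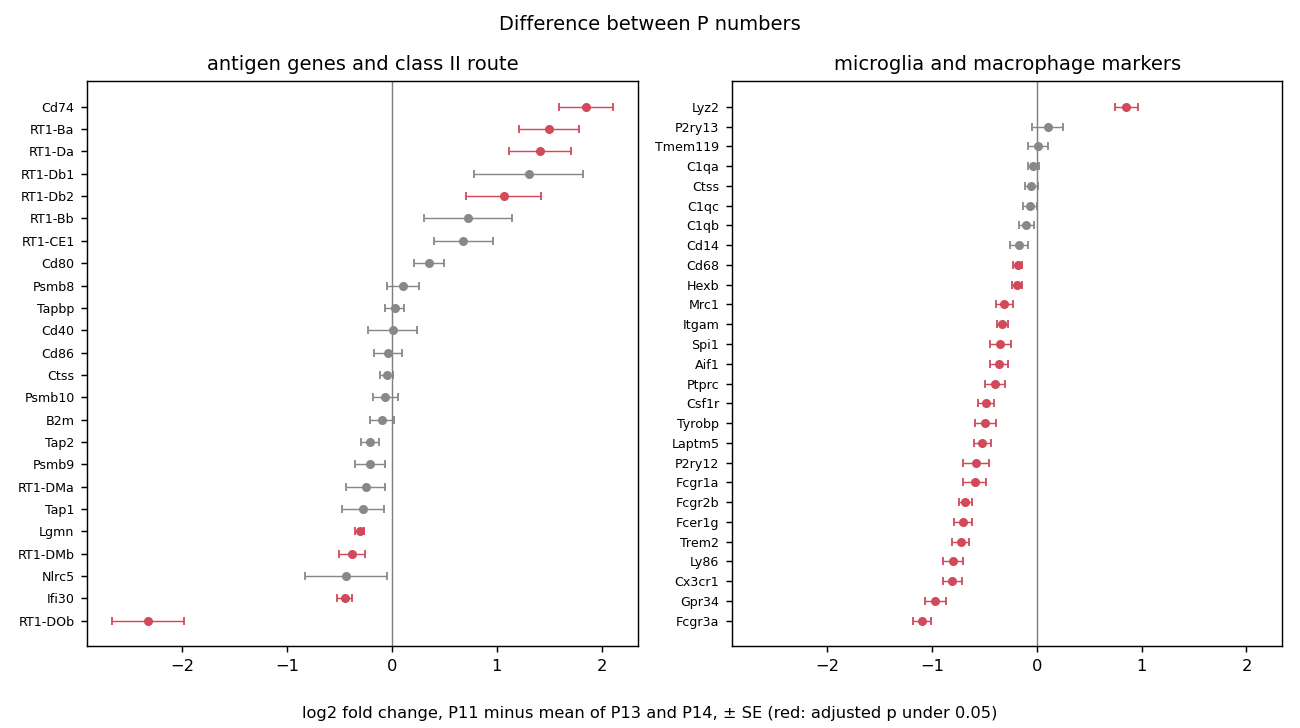
Log2 fold change of P11 against the mean of P13 and P14 with its SE, for the 10 genes and the class II route (left) and for 27 microglia and macrophage markers (right), where red marks an adjusted p under 0.05. Cd74 stands at the top of the left panel with 1.85, above RT1-Ba and RT1-Da, while most microglia markers lie below 0.

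Within the set the genes moved together to different degrees once each P number's mean was subtracted. Over the 9 libraries, the Pearson correlation of a gene's log2 CPM with the mean of the other 9 genes was 0.99 for B2m, 0.97 for Psmb9 and 0.94 for Psmb8, and lowest for Tap2 (0.63) and Psmb10 (0.55). Cd74 had 0.66. All these values share libraries and lean on 1 µM P13, so they are descriptions with no test. Among 11688 genes outside the set with a mean of at least 2 CPM, those most like the mean of the set without Cd74 were Htr2c (r = 0.99), Fibin (0.99), RT1-CE7 (0.99), Rnf19b (0.99), RT1-A1 (0.98) and RT1-CE5 (0.98). Fibin had only 0.118 CPM in basal P14, 0.182 CPM in 1 µM P14 and 0.0805 CPM in 10 µM P14, so its value rests in part on very few reads. RT1-CE7, RT1-A1 and RT1-CE5 are class I heavy chain genes. The mean they were set against includes RT1-CE1, another such gene whose reads can be exchanged with those of the copies. Their likeness is thus partly built in, and the share of such genes among all candidates was not counted. The genes most like Cd74 were Phlda3 (0.98), Ttc23 (0.97), Hey1 (0.96), Ifngr1 (0.96), Lmo4 (0.94) and Gas6 (0.93). The class II chain genes RT1-Ba, RT1-Bb, RT1-Da, RT1-Db1 and RT1-Db2 lay under the minimum of 2 CPM and were not candidates.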

How the data were processed

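RNA was sequenced as 75-base paired reads from stranded mRNA libraries, per the labels' protocols. The submitters' processing notes name DRAGEN, FastQC, Picard and Trimmomatic and genome build rn6. The sources used here do not give the settings, counter or annotation. For each gene, the authors deposited expected counts (estimated counts per gene, not scaled between libraries) and TPM values (scaled by gene length). The counts were rounded to whole numbers. Of 32623 IDs, 399 had no name and held at most 0.0111% of a library's reads. Depth was 23.9 to 43.1 M (M, 1e+06) reads, and at a count of 0 the upper limit is 3 reads by counting error alone.

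Genes were tested on all 9 libraries with edgeR 4.0.16 (R 4.3.3), TMM and filterByExpr (minimum count 10, minimum total 15), which kept 15321 genes, by the quasi-likelihood test with Benjamini-Hochberg adjustment over all of them. An adjusted p under 0.05 was called. No P number was in the first fit, and a second had it as an additive block. All 9 same-number pairs of libraries had correlated deviations from their group means (0.319 to 0.772, by the rule of over 0.1 for every pair; the 18 other pairs lay between -0.708 and 0.193), so the numbers were taken to pair the libraries. Libraries of 1 group differed by more than the noise of sampling (a chi-square over genes of 24.3 to 119 per degree of freedom). Differences within a P number were taken on log2 CPM (prior count 2).

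The genes of the set and the lists were chosen with earlier results of these data known. Named are the 10 genes, list genes called in either fit or, failing these, up to 4 per list by mean TPM, and the 6 genes most like the set or Cd74. Isg15, Irf1, Rfx5, Rfxap, Rfxank, Ciita, RT1-A1, RT1-A2, Calr, Canx, Pdia3 and Lyz2 were named after their values were seen. Other settings were DESeq2 size factors, library totals, DESeq2 1.42.0, limma 3.58.1 on log2(TPM + 1) with and without a minimum of 1 TPM in 3 libraries and on log2(TPM + 0.1), the count filter removed or raised to a mean of 100 reads, the 2 groups alone, and leaving out each library or all of P11. The fits were tried on counts simulated from a fitted model with the P number. That trial cannot show how they behave with a library that stands apart, such as 1 µM P13. Promoters were read from RefSeq (GRCr8), whose coordinates are not those of rn6.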

Additional observations from a re-analysis of the deposited data

How the results depend on the processing

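Which genes passed depended on the P number and on the tool. Without the P number, DESeq2 called 64 genes at 10 µM against basal, 5 at 1 µM against basal and 66 at 10 µM against 1 µM, where edgeR called 0 and none of the 10 genes passed in either. The replicate block gave 607 and 659 genes at 10 µM (against basal and against 1 µM) and 2 of the 10 genes at 10 µM against 1 µM. With the block, DESeq2 called 947 genes at 10 µM against basal, 8 at 1 µM against basal and 4 of the 10 genes at 10 µM against 1 µM (Psmb8, Psmb9, Tap1 and Tapbp), and limma called 0 of the 10. Without all P11 libraries edgeR with the block called 10 genes at 10 µM against basal, and 110 genes with 0 of the 10 at 10 µM against 1 µM. Leaving out single libraries with the block gave 0 to 581 genes at 10 µM against basal, 0 to 2 at 1 µM against basal, and 0 to 651 at 10 µM against 1 µM with 0 to 1 of the 10. The cause was not tested. From CPM in place of TPM, the Psmb8 share was 4.84% in basal libraries, 6.43% at 1 µM and 3.46% at 10 µM, and the Psmb9 share 7.92% at 10 µM and 9.55% in basal libraries. No called direction reversed. Uncalled log2 fold changes crossed 0 when single libraries were left out. At 10 µM against basal they ranged, with and without the block in that order, from -0.053 to 0.43 and -0.17 to 0.61 (RT1-CE1), -0.044 to 0.32 and -0.00087 to 0.42 (Psmb10), -0.061 to 0.60 and -0.64 to 1.29 (Cd74), -0.14 to 0.085 and -0.12 to 0.035 (Tapbp), and -0.52 to 0.42 and -0.34 to 0.019 (Nlrc5), with B2m at -0.20 to 0.0199 with the block. At 1 µM against basal Tap2 ranged from -0.031 to 0.14 with the block and -0.0702 to 0.10 without it, and Tap1 from -0.0052 to 0.66 with it. At 10 µM against 1 µM Psmb10 ranged from -0.36 to 0.0089 with the block and -0.29 to 0.048 without it, and Cd74 from -1.60 to 0.099 without it. Without all P11 libraries, Psmb10 had -0.054 at 10 µM against basal and Tap2 -0.0112 at 1 µM against basal. Cd74, Nlrc5 and RT1-CE1 are limited by their low read counts.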
